A study of Mus musculus with 8 samples.

Results

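Messenger RNA for the mucosal antibody system was examined through 6 genes out of 8251 that the arrays read with a probe set of their own. They are Igha and Ighg3, which encode the constant parts of the IgA and IgG3 heavy chains, Jchain, the joining chain that links IgA monomers into polymers, and Pigr, the epithelial receptor that carries polymeric IgA across the gut lining. Cd79a and Cd79b encode the signalling pair of the B cell antigen receptor. The genes were chosen by name, as a set that covers antibody, its assembly, its transport and the B cell receptor. They are read by 14 probe sets that the annotation assigns to 1 gene each, 3 for Igha, 7 for Ighg3 and 1 for each of the others, and 2 further probe sets are shared between several genes.

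The study compared colon RNA of C57BL/6J and C3H/HeJBir mice, each as wild type and as carriers of the targeted interleukin-10 allele Il10tm1Cgn (C57BL/6J-Il10tm1Cgn and C3H/HeJBir-Il10tm1Cgn, called Il10-null here). Each of these 4 groups held 2 pools, called sample 1 and sample 2, and each pool was hybridised to 1 Affymetrix array. Total RNA of whole colon had been mixed in equal parts, 7 µg from each of 5 mice, or of 4 mice in both C3H/HeJBir wild-type pools and the sample 2 C3H/HeJBir Il10-null pool. An age of 4 weeks is given for the sample 2 C57BL/6J wild-type pool. For the other pools no age was at hand, and for none a sex or a disease score. As a line derived from C3H/HeJ, C3H/HeJBir carries a defective Tlr4, the receptor for bacterial endotoxin, in both genotypes. No treatment is named for any group, and the Il10 allele is carried in all cells rather than in 1 cell type. Because RNA of several animals was mixed before hybridisation, spread and p-values refer to pools and not to single mice.

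IgA is the main antibody of the gut. B cells switch to IgA in gut-associated lymphoid tissue under the influence of TGF-beta and settle in the lamina propria as plasma cells, which secrete IgA joined by J chain. Epithelial cells take up this polymer with the polymeric immunoglobulin receptor, carry it to the lumen and release it with a piece of the receptor. Mature plasma cells make much antibody RNA and little of the B cell receptor's CD79 proteins, whereas B cells do the reverse. The output of IgA plasma cells in mice builds up after weaning with the gut flora, and interleukin-10 is a cytokine that restrains intestinal inflammation.

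Several facts of the arrays bear on the values. Array medians ran from 50.1 to 62.2 intensity units, and the mean Spearman correlation of an array with the others was 0.931 to 0.945, except 0.915 for the sample 1 C3H/HeJBir Il10-null pool. The arrays were hybridised on 3 days over 2 years, the sample 1 Il10-null pools on 1 day, the sample 1 wild types on another and all sample 2 pools on the third. Strains can thus be compared within a day throughout, but genotypes within a day in sample 2 alone. Xist, the RNA of the inactive X chromosome, read 243 to 452 in sample 1 and 2.84 to 12.9 in sample 2, so sample number also separates the pools by Xist level. Eif2s3y, a gene of the Y chromosome, read 256 to 411 in sample 2. In sample 1 it read 39.7 and 113 in C57BL/6J wild type and Il10-null, and 318 and 242 in C3H/HeJBir. Within sample 1 the strains thus also differed in Eif2s3y level, and its part in the strain differences was not tested. The Il10 probe set 100319_at read 5.43 to 10.9 in wild-type pools and 22.0 to 51.7 in Il10-null pools. The position of these probes in the targeted gene was not at hand, so the values do not check the labels.

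RefSeq promoters on mouse assembly GRCm38.p6 were at hand for 3 of the 6 genes and are shown because each stands for a different step of the system: transport, polymer assembly and antigen sensing. Each line gives 250 bases upstream of the gene's start, on the gene's own strand, with motif matches in capitals.
Pigr, chr1:130826434-130826683, plus strand: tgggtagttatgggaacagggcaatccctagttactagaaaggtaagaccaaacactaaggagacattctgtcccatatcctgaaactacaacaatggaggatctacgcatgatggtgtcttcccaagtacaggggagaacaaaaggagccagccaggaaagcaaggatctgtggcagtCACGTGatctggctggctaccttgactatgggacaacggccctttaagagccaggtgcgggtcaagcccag
Jchain, chr5:88527898-88528147, minus strand: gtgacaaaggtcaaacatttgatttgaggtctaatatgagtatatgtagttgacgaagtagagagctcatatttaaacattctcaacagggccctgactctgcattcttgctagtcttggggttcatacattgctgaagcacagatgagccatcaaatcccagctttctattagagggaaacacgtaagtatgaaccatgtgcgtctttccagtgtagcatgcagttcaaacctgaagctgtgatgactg
Cd79a, chr7:24897247-24897496, plus strand: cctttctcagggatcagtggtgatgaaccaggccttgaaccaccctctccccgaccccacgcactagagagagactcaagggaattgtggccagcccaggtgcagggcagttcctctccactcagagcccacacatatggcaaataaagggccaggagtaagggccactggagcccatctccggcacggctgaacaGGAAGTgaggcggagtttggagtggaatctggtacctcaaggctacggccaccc
5 motifs were sought on both strands in these promoters together with 50 bases after the start. The E-box CACGTG, the kind bound by USF factors, begins 71 bases before the Pigr start and is present in 7.15% of 32851 promoters of the same 300-base length. The Ets core GGAAGT lies 54 bases before the Cd79a start and in 23.8% of promoters. The interferon response core TTTCNNTTT occurs 8 bases into the Pigr transcript, outside the stretch printed, and in 10.6% of promoters. The octamer ATTTGCAT, found in 1.74%, and the letters CCCNNGGG, found in 13.7%, were not matched in these windows. Such matches describe the letters and not bound factors.

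Igha read higher in the C3H/HeJBir than in the C57BL/6J wild-type pools. On its brightest probe set, 100583_at, the C57BL/6J wild-type pools read 894 and 411, in the order sample 1 and sample 2, and the C57BL/6J Il10-null pools 502 and 707. The C3H/HeJBir wild-type pools read 2578 and 2246, and the C3H/HeJBir Il10-null pools 3241 and 865. Of the 4 C3H/HeJBir pools 3 lay above every C57BL/6J pool, and the sample 2 Il10-null pool lay just below the sample 1 C57BL/6J wild type. Wild-type group means were 2412 ± 235 and 652 ± 341 (SD, n = 2), a ratio of 3.70. The strain difference, C3H/HeJBir minus C57BL/6J on the log2 scale after 11.07 was added to each intensity, was 1.97 in wild type (SE 0.59, limma adjusted p = 0.475). It did not pass the threshold of 0.05, which is used throughout on p-values adjusted by Benjamini-Hochberg over all 7453 probe sets tested. In RNA of whole tissue, fewer cells of a type and less RNA per cell cannot be told apart.

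In Il10-null pools the Igha strain difference on the same probe set was 1.48 (SE 0.59, adjusted p = 0.875), and the average over both genotypes was 1.72 (SE 0.42, limma adjusted p = 0.147). Without the sample 2 C3H/HeJBir Il10-null pool the average was 2.19, from a fit that kept 1 pool in that group. Over all alternatives run the adjusted p of the average reached 0.449. Each C3H/HeJBir pool exceeded the C57BL/6J pool of the same genotype and sample number, by log2 differences of 1.52, 2.42, 2.66 and 0.29. Loss of Il10 went with no single direction. The log2 difference, Il10-null minus wild type, was -0.82 and 0.77 in the C57BL/6J pairs and 0.33 and -1.37 in the C3H/HeJBir pairs. The fitted values were -0.03 (SE 0.59) and -0.52 (SE 0.59), neither called.

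The second Igha probe set, 161486_f_at, was dimmer and set the strains apart in every pool. C57BL/6J wild-type pools read 41.1 and 30.9, and C57BL/6J Il10-null pools 22.2 and 29.4. C3H/HeJBir wild-type pools read 85.8 and 67.8, and Il10-null pools 59.7 and 42.7. Every C3H/HeJBir pool lay above every C57BL/6J pool, and within each strain the Il10-null pools lay below the wild types without overlap. The strain difference averaged 0.83 (SE 0.18, limma adjusted p = 0.110). For Il10 loss it was -0.35 in C57BL/6J and -0.50 in the other strain (SE 0.26 each), and none of these passed the test. Sets whose names end in _f_at hold probes that can match several members of a sequence family, so their signal is not certain to be that of 1 gene. The remaining set, 97009_f_at, had a mean of 29.6, under the minimum of 37.0 for a test, with 3.03 to 13.5 in C57BL/6J and 23.1 to 64.5 in C3H/HeJBir.

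Ighg3 showed the widest strain gap of the 6 genes in wild type, though on a set of the _f_at kind. On probe set 97574_f_at the C57BL/6J wild-type pools read 17.7 and 14.4 and the C57BL/6J Il10-null pools 13.1 and 40.6. The C3H/HeJBir wild-type pools read 437 and 657, whereas the C3H/HeJBir Il10-null pools read 292 and 31.5. The sample 2 C3H/HeJBir Il10-null pool thus fell among the C57BL/6J pools, while the other 3 C3H/HeJBir pools lay far above them. Wild-type means were 547 ± 156 and 16.04 ± 2.39 (SD, n = 2), and the log2 difference was 4.34 (SE 0.79, limma adjusted p = 0.0932). The average strain difference was 3.01 (SE 0.56, adjusted p = 0.0521). Both lie close to the threshold, and their adjusted p ran from 0.00224 to 0.425 and from 0.00217 to 0.203 over the alternatives. With either C3H/HeJBir Il10-null pool left out, the wild-type difference stayed at 4.34, since neither pool enters it. The average was 3.72 without the sample 2 pool of that group and 2.30 without the sample 1 pool. Such a fit keeps 1 pool in that group, whose spread then drops out of the estimate of error. The lowest adjusted p of the average came from such a fit.

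The Ighg3 signal of 97574_f_at was lower in the C3H/HeJBir Il10-null than in the wild-type pools without overlap. The log2 difference was -2.27 (SE 0.79, limma adjusted p = 0.999) in C3H/HeJBir and 0.39 (SE 0.79, adjusted p = 1.00) in C57BL/6J. The difference between these effects was -2.65 (SE 1.12, limma adjusted p = 1.00). By pair of pools the C3H/HeJBir value was -0.56 in sample 1 and -3.97 in sample 2, so most of it came from 1 pair. None of these was called.

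2 other Ighg3 probe sets were bright enough to be tested. 93927_f_at read 42.9 and 30.3, then 4.20 and 72.1 in C57BL/6J wild type and Il10-null, and 169 and 162, then 259 and 32.4 in C3H/HeJBir. 97008_f_at read 40.3 and 16.5, then 29.3 and 37.2, against 91.4 and 77.2, then 118 and 25.9. In both, the C3H/HeJBir wild-type pools and the sample 1 Il10-null pool lay above all C57BL/6J pools, and the sample 2 Il10-null pool lay among them. Their wild-type strain differences were 1.90 (SE 0.91) and 1.34 (SE 0.54), not called. The 4 Ighg3 probe sets under the minimum had means of 7.09 to 35.8. One of these, 101752_f_at, separated the wild-type strains with means of 52.2 ± 4.38 and 2.76 ± 0.09 (SD, n = 2). Of the 3 others, 102721_at and 102722_g_at had wild-type strain ratios of 1.28 and 0.74, and 102723_at had means of 10.2 and 4.06, so the probe sets of Ighg3 disagreed. The sets with the widest wild-type ratios all end in _f_at, so their signal may not be that of Ighg3 alone. Of the 2 probe sets shared between several genes, 97575_f_at read 119.97 and 63.4 in C3H/HeJBir wild type against 36.7 and 25.9 in C57BL/6J, and 99421_at read 122 to 155 in all 8 pools.

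Jchain, which is made by plasma cells and encoded apart from the heavy chains on chromosome 5, showed the same arrangement of pools. Its probe set 102372_at read 277 and 229 in C57BL/6J wild type and 226 and 369.6 in C57BL/6J Il10-null. It read 565 and 662 in C3H/HeJBir wild type and 654 and 336 in C3H/HeJBir Il10-null. The 3 highest C3H/HeJBir pools lay above all C57BL/6J pools, and the sample 2 Il10-null pool lay within the C57BL/6J range. Wild-type means were 613 ± 68.9 and 253 ± 34.2 (SD, n = 2), a ratio of 2.42. The strain difference was 1.24 (SE 0.36, limma adjusted p = 0.437) in wild type and 0.68 (SE 0.36, adjusted p = 1.00) in Il10-null. The Il10 difference was 0.19 in C57BL/6J and -0.37 in C3H/HeJBir (SE 0.36 each), and its sign differed between the pairs of pools in both strains.

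**Figure D1:**
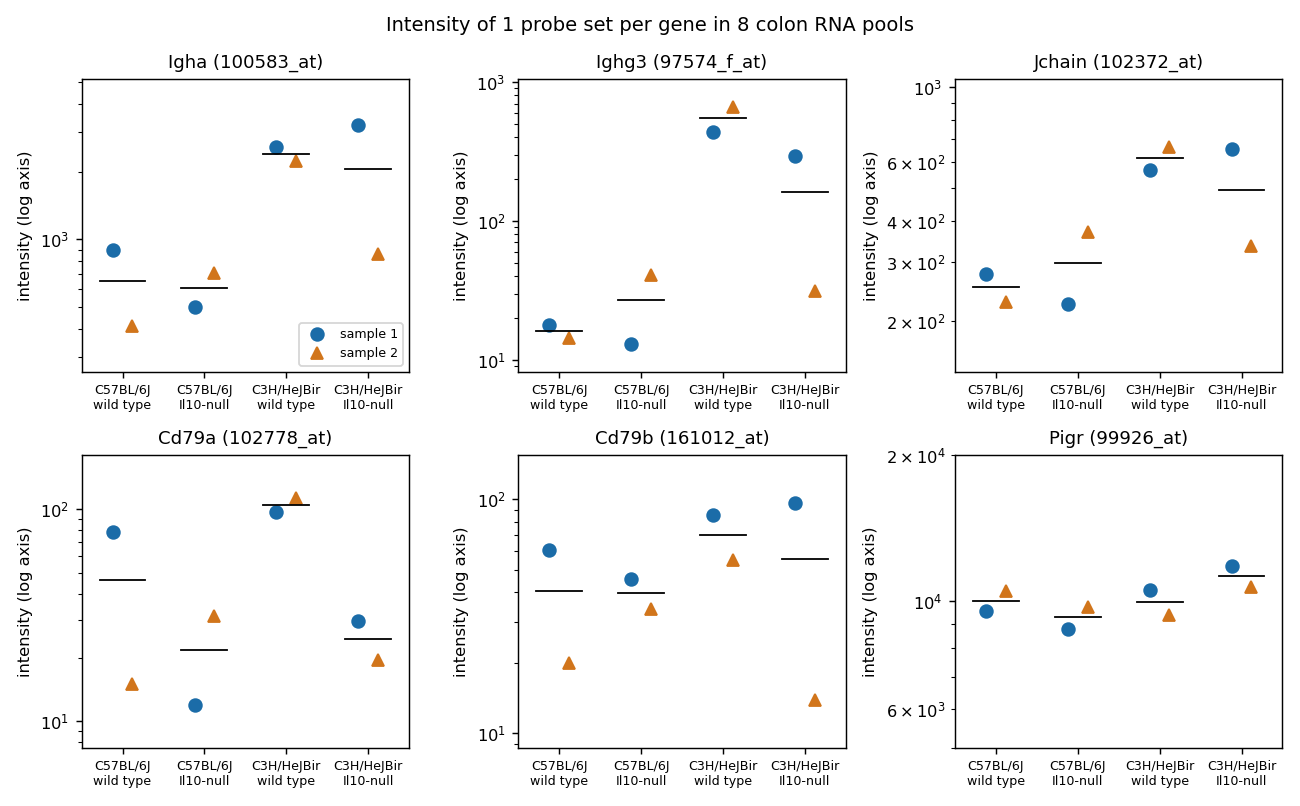
Intensity on a log axis of 1 probe set for each of the 6 genes in the 8 pools, with sample 1 as circles, sample 2 as triangles and group means as lines. Igha, Ighg3 and Jchain are high in 3 of the 4 C3H/HeJBir pools and lower in the sample 2 Il10-null pool, and Pigr lies between 8787 and 11826 in all pools.

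Cd79a, the alpha chain of the receptor's signalling pair, read highest in C3H/HeJBir wild type. Probe set 102778_at read 78.3 and 14.95 in C57BL/6J wild type, 12.01 and 31.3 in C57BL/6J Il10-null, 97.2 and 113 in C3H/HeJBir wild type and 29.6 and 19.6 in C3H/HeJBir Il10-null. Within C3H/HeJBir the genotypes did not overlap, in C57BL/6J they did, and the 2 C57BL/6J wild-type pools differed more than any other pair of replicates. The Il10 difference was -1.72 (SE 0.54, limma adjusted p = 0.999) in C3H/HeJBir and -0.63 (SE 0.54) in C57BL/6J. The difference between them was -1.09 (SE 0.77, adjusted p = 1.00). By pair of pools it was -1.41 in sample 1 and -2.02 in sample 2 of C3H/HeJBir, and -1.95 and 0.70 in C57BL/6J, and the sample 2 pools shared 1 hybridisation day. The wild-type strain difference was 1.26 (SE 0.54, adjusted p = 0.869), and it was 0.37 without the sample 2 C57BL/6J wild-type pool and 2.16 without the sample 1 pool of that group. Cd79a did not pass the test in any comparison.

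Cd79b, the beta chain, read by 161012_at, followed sample number more than group. The sample 1 pools read 60.8 and 45.8 in C57BL/6J wild type and Il10-null and 85.9 and 96.6 in C3H/HeJBir. The sample 2 pools read 20.04 and 33.8, then 54.7 and 13.9. In each group the sample 2 pool was the lower, although the ranges overlapped. The difference, sample 2 minus sample 1, was -1.05 (SE 0.29, limma adjusted p = 0.145), in a comparison that called 11 of 7453 probe sets (0.148%). At an unadjusted limma p under 0.05 it held 1552 sets (20.8%), the most of any comparison. Hybridisation day and Xist level moved with sample number, and their part in the result was not tested. The strain difference was 0.76 (SE 0.65) in wild type and 0.04 (SE 0.65) in Il10-null. The Il10 difference was 0.10 and -0.62 (SE 0.65 each) in C57BL/6J and C3H/HeJBir, and none was called.

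Pigr was among the strongest signals on the arrays and varied least of the 6 genes. Probe set 99926_at read 9537 and 10478 in C57BL/6J wild type, 8787 and 9748 in C57BL/6J Il10-null, 10556 and 9361 in C3H/HeJBir wild type and 11826 and 10709.97 in C3H/HeJBir Il10-null. The highest pool exceeded the lowest 1.35-fold. The C3H/HeJBir Il10-null pools lay above the other groups, and the remaining groups overlapped. The Il10 difference was 0.18 (SE 0.22) in C3H/HeJBir and -0.11 (SE 0.22) in C57BL/6J. The strain difference was -0.01 (SE 0.22) in wild type and 0.28 (SE 0.22) in Il10-null, and the smallest adjusted p over the comparisons was 0.980. The highest value on any array was 9808 to 12860, so Pigr lay near the top of the scale, and compression there was not tested.

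Pigr and Il10 are neighbours on chromosome 1 in the order of the RefSeq table, with 5 genes between them, 4 of them protein coding and 0 probed here. A targeted allele brings flanking DNA of the donor line with it, so for Pigr the loss of Il10 and a linked segment cannot be told apart. Of 6 tested probe sets within 10 genes of either, 0 were called for Il10 genotype. Besides Pigr they belong to C4bp, Mapkapk2, Eif2d, Rassf5 and Ikbke. Ikbke, a kinase of innate signalling, read 37.5 and 66.9 in C57BL/6J wild type and 62.6 and 101 in Il10-null. In C3H/HeJBir it read 58.0 and 73.1 in wild type and 148 and 115 in Il10-null, where the genotypes did not overlap. Its Il10 differences were 0.56 and 0.90, while those of the other 4 genes lay between -0.27 and 0.19.

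Counted together, 0 of the 9 member probe sets that passed the minimum were called in any comparison. The background was low in the same comparisons. Of 7453 probe sets, 30 (0.403%) were called between the strains in wild type, 22 (0.295%) in Il10-null and 83 (1.11%) in the average over genotypes. Il10 loss called 0 (0.0%) in C57BL/6J, with 118 at an unadjusted limma p under 0.05, and 1 (0.0134%) in C3H/HeJBir, with 211. The difference between the Il10 effects called 0 (0.0%), with 112 at that level, and the average Il10 effect 0 (0.0%), with 230. With 2 pools in a group, absence of a call leaves sizeable differences possible, as the standard errors above show.

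Without any minimum on intensity, 10 of the 14 member probe sets were higher in both C3H/HeJBir wild-type pools than in both C57BL/6J wild-type pools and 0 were lower. Over all 12422 probe sets, 13.3% were higher and 16.6% lower in this way. The 10 comprise the 3 sets of Igha, 5 of the 7 of Ighg3, and those of Jchain and Cd79a. In Il10-null pools 4 of 14 were higher and 0 lower, against 12.4% and 14.7% of all sets. Those 4 are the 3 sets of Igha and the set of Pigr. Over both genotypes, 4 pools against 4, 2 of 14 were higher and 0 lower, against 2.04% and 2.91%, and both belong to Igha. Without the sample 2 C3H/HeJBir Il10-null pool 8 of 14 were higher (3.61% of all sets), and without the sample 1 pool 3 of 14 (3.41%). These counts include sets that match overlapping sequences and are not independent of each other.

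For Il10 loss, 1 of 14 member sets was higher and 1 lower without overlap in C57BL/6J, against 12.5% and 14.5% of all probe sets. In C3H/HeJBir 1 was higher, that of Pigr, and 4 were lower, against 12.2% and 12.1%. The 4 lower sets were 1 of Igha, 2 of Ighg3 and that of Cd79a. The 2 pairs of pools did not move alike. In C57BL/6J the median over the 14 sets was -0.34 in sample 1, with 2 higher, and 0.66 in sample 2, with 11 higher. In C3H/HeJBir it was 0.11, with 8 higher, and -1.13, with 4 higher.

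The strain difference recurred in 3 of the 4 pairs of pools. Among the 14 sets the median log2 difference, C3H/HeJBir minus C57BL/6J, was 0.94 in wild-type sample 1, with 13 higher, and 1.58 in wild-type sample 2, with 12 higher. It was 1.29 in Il10-null sample 1, with 12 higher. In Il10-null sample 2 it was -0.17, with 6 higher. Over all 12422 sets the medians of these pairs lay between -0.05 and 0.00. The sample 1 C3H/HeJBir Il10-null pool exceeded its sample 2 counterpart in 12 of 14 sets, with a median of 0.91, while the median over all sets was 0.12.

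**Figure D2:**
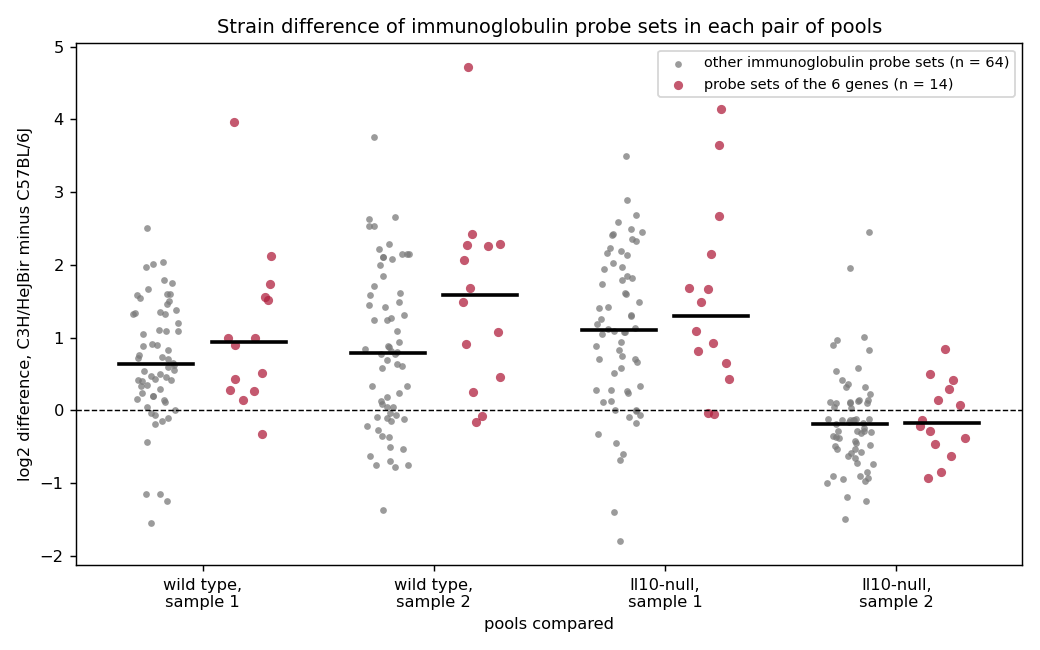
Log2 difference, C3H/HeJBir minus C57BL/6J, of each of 14 member probe sets (red) and 64 other immunoglobulin probe sets (grey) in each pair of pools of the same genotype and sample number, with medians as bars. The medians are above 0 in both wild-type pairs and in Il10-null sample 1, and -0.17 and -0.19 in Il10-null sample 2.

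Other antibody genes, heavy and light chain, lie on chromosomes 12, 6 and 16 and were read by 64 further probe sets, 54 for 25 single genes and 10 shared between several genes. In wild type 31 of the 64 were higher in C3H/HeJBir without overlap and 3 lower, against 13.3% and 16.6% of all sets. In Il10-null 16 were higher and 2 lower, against 12.4% and 14.7%. Over both genotypes 10 were higher and 0 lower, against 2.04% and 2.91%, or 22 higher (3.61% of all sets) without the sample 2 C3H/HeJBir Il10-null pool. For Il10 loss 7 were higher and 5 lower in C57BL/6J, no more than the 12.5% and 14.5% of all sets. In C3H/HeJBir 3 were higher and 14 lower, against 12.2% and 12.1%. The pairs of pools repeated the pattern of the members. Medians were 0.63, 0.78 and 1.11 in the first 3 pairs, with 54, 46 and 53 of 64 higher, and -0.19 in Il10-null sample 2, with 23 higher.

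Of 37 such sets that passed the minimum, 1 was called, in the average strain difference, where 1.11% of all tested sets were called. That set is named here after its value was seen. It is 101871_f_at of Ighm, the IgM heavy chain. It read 30.6 and 12.3 in C57BL/6J wild type, 35.6 and 30.6 in C57BL/6J Il10-null, 226 and 303 in C3H/HeJBir wild type and 207 and 44.4 in C3H/HeJBir Il10-null. On this set every C3H/HeJBir pool lay above every C57BL/6J pool. The log2 difference was 2.22 (SE 0.41, limma adjusted p = 0.0498). The set passed the minimum of 37.0 only through C3H/HeJBir, since its C57BL/6J group means were 21.4 in wild type and 33.1 in Il10-null. In the other tested Ighm sets the sample 2 C3H/HeJBir Il10-null pool lay within or below the C57BL/6J range. On the brightest, 99420_at, it read 862 against 442 to 1059 in C57BL/6J. 101749_at and 102159_at of Ighm, under the minimum, read lower in both C3H/HeJBir wild-type pools than in both C57BL/6J wild-type pools. The other genes with the largest average strain differences among the light and heavy chain variable genes were Igkv9-120 with 1.69 (SE 0.33, adjusted p = 0.0604), Igkv6-23 with 1.59 (SE 0.35, adjusted p = 0.104) and Ighv1-54 with 1.47 (SE 0.55, adjusted p = 0.449). The set of Igkv9-120 also passed the minimum only through C3H/HeJBir, with C57BL/6J group means of 17.1 and 19.4. Igkv6-23 read 1468, 887, 953 and 1833 in the C57BL/6J pools and 4681, 4363, 4933 and 1897 in the C3H/HeJBir pools. A bright kappa probe set shared between several genes, 93086_at, read 3522 to 6192 in C57BL/6J and 6701 to 11765 in C3H/HeJBir, without overlap.

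The strains carry different alleles of the antibody loci, and how well each probe fits each allele was not tested.

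Among Il10 differences of single antibody genes in C57BL/6J, the largest were those of Ighv3-6 with -0.59, Igkv1-133 with 0.45 and Igkv8-30 with 0.35. In C3H/HeJBir they were those of Igkv7-33 with 1.43, Igkv4-70 with -1.32 and Igkv4-91 with -1.08, each read by its brightest set, and none was called. Igkv7-33 ran against the others, with 54.6 and 33.0 in C3H/HeJBir wild type and 83.5 and 212 in Il10-null. Igkv4-70 read 726 and 650.3 in C3H/HeJBir wild type and 369.6 and 194 in Il10-null.

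The cells behind the members were described with 6 further lists, in which 0 genes rose and 0 fell in any comparison. Of 35 B cell genes 29 were on the array and 17 tested. Their median average strain difference was -0.05, against -0.02 over all tested sets, and the Il10 medians were 0.04 in C57BL/6J and -0.17 in C3H/HeJBir, against -0.01 in each. The largest average strain differences were those of Cd40, a costimulatory receptor, with -0.84 (SE 0.32), Plcg2, a phospholipase downstream of the B cell receptor, with -0.54 (SE 0.17), and Ly6d with 0.52 (SE 0.36). Spib, a transcription factor of B cells and of M cells, had the largest Il10 difference in C57BL/6J, -0.70 (SE 0.28, limma adjusted p = 1.00). It read 101 and 105 in wild type and 50.5 and 68.9 in Il10-null. In C3H/HeJBir the largest were those of Igll1, part of the surrogate light chain, with 0.81, Ms4a1, which encodes CD20, with -0.54, and Btk with -0.50. In C57BL/6J those of Igll1 and Cd83 were -0.53 and -0.52. Each of these genes is read here by its brightest set. A second set of Igll1 had Il10 differences of -0.76 in C3H/HeJBir and -0.31 in C57BL/6J. The sets of Igll1 thus disagreed in direction in C3H/HeJBir.

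Of 22 plasma cell genes 17 were on the array and 13 tested. The median Il10 difference was 0.13 in C57BL/6J, where 13 of 13 values were above 0, and 0.06 in C3H/HeJBir, with 8 of 13. Over all tested sets 48.9% and 48.5% were above 0. The smallest unadjusted limma p of the 13 in C57BL/6J was 0.0611. The average strain difference had a median of 0.16, with 10 of 13 above 0, against 45.9% of all tested sets. Genes read on the same pools are not independent of each other. Prdm1, the regulator that drives plasma cell formation, read 40.6 and 24.5 in C57BL/6J wild type and 52.2 and 54.6 in Il10-null, and 38.7 and 39.4 in C3H/HeJBir wild type and 73.3 and 50.2 in Il10-null. Its genotypes did not overlap in either strain, with Il10 differences of 0.59 and 0.52 (SE 0.27 each, not called). Hspa5, a chaperone of the endoplasmic reticulum, had Il10 differences of 0.33 and 0.41, Xbp1, which expands that compartment, 0.24 in C57BL/6J, and Creld2 0.36 in C3H/HeJBir. By strain, Tnfrsf17, the plasma cell survival receptor BCMA, had 0.55 (SE 0.31), Pdia4 0.49 (SE 0.24) and Txndc5 0.48 (SE 0.22). Epithelial cells make Xbp1, Hspa5, Pdia4 and Txndc5 as well.

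Of 32 genes of IgA induction and homing 21 were on the array and 6 tested. The average strain difference had a median of 0.16, and the Il10 medians were 0.05 and -0.17. Aldh1a1, which makes retinoic acid, had a strain difference of 0.43 (SE 0.22), Smad7, an inhibitor of TGF-beta signalling, -0.42 (SE 0.15), and Itgb7, a chain of the gut homing integrin, 0.35 (SE 0.25). The chemokine gene Ccl25 had Il10 differences of 0.44 and -0.51 in C57BL/6J and C3H/HeJBir (SE 0.65 each). Smad4 had 0.21 and -0.30, Aldh1a1 -0.26 in C57BL/6J and Smad7 -0.18 in C3H/HeJBir.

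Of 19 genes of lymphoid tissue 15 were on the array and 9 tested, with strain median 0.17 and Il10 medians of -0.19 and 0.03. Ltb, a cytokine needed for lymphoid organs, had a strain difference of 1.12 (SE 0.44, adjusted p = 0.483), Glycam1 0.73 (SE 0.39) and Tnfrsf11a, the receptor RANK, 0.44 (SE 0.19). Ltb read 58.8, 18.1, 9.01 and 47.7 in the C57BL/6J pools and 44.7, 118, 85.3 and 67.2 in the C3H/HeJBir pools, which overlapped. In C57BL/6J the Il10 differences of Ltb and Tnfrsf11a were -0.39 and -0.30. In C3H/HeJBir the largest were -0.25 for Glycam1, 0.22 for Ltbr and 0.21 for Bcl6.

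Of 32 genes that regulate Pigr or serve epithelial transport 24 were on the array and 20 tested. Their medians were 0.02 and 0.01 for Il10 loss and -0.01 for strain, with members on both sides of 0, from -0.55 to 0.56 for Il10 loss in C3H/HeJBir. Irf1, an interferon-induced factor, read 647, 856, 738 and 1277 in the C57BL/6J pools and 754, 1112, 1506 and 1143 in the C3H/HeJBir pools. Its Il10 differences were 0.38 and 0.51 (SE 0.34 each) and its strain difference 0.36. Traf6, an adaptor of innate receptors, had a strain difference of 0.44 (SE 0.17) and Il4ra, the interleukin-4 receptor chain, 0.40 (SE 0.24). In C57BL/6J the small GTPase gene Rab25 and the factor Usf1 had Il10 differences of -0.39 and 0.25. In C3H/HeJBir Il4ra had 0.56 and Il17ra -0.55. Of 13 Fc receptor genes and other antibody-binding proteins 10 were on the array and 5 tested, with Il10 medians of -0.10 and -0.09 and a strain median of -0.16. Among them Fcgrt, the neonatal Fc receptor, had Il10 differences of -0.53 and -0.25 in C57BL/6J and C3H/HeJBir, and a strain difference of 0.25. Trim21, a cytosolic antibody receptor, had 0.37 and -0.33, Fcgr1 -0.21 in C57BL/6J and -0.24 by strain, Tfrc 0.32 in C3H/HeJBir and Lgals3 -0.19 by strain. A second set of Trim21 had Il10 differences of -0.15 and -0.19, so its sets disagreed in direction in C57BL/6J.

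Marker lists of colon cell types, and of other tissues such as exocrine pancreas, were summed per pool. The 64 other immunoglobulin sets summed to 7765 to 13510 in C57BL/6J, and to 25188, 24756 and 27455 in C3H/HeJBir with 13108 in the sample 2 Il10-null pool. Plasma cell markers (10 of 13 listed genes on the array) summed to 1481 to 1976 in C57BL/6J and 1833 to 2277 in C3H/HeJBir, overlapping. B cell markers (15 of 19) summed to 764 to 1148 and 670 to 1375, also overlapping. The lowest B cell sum, 670, was that of the sample 2 C3H/HeJBir Il10-null pool. Its antibody sum, 13108, was the lowest of the C3H/HeJBir pools but lay within the C57BL/6J range. The lowest antibody sum, 7765 in sample 1 of C57BL/6J Il10-null, went with a B cell sum of 1148, the highest in C57BL/6J. Ms4a1, which marks B cells, read 51.5 to 97.98 on its brighter set in all 8 pools. Its second set, 99446_at, read 29.0, 13.4, 4.52 and 61.4 in the C57BL/6J pools and 71.2, 132, 41.0 and 49.6 in the C3H/HeJBir pools. The strain difference of that set was 1.80 in wild type and 1.27 on average, so the 2 sets of Ms4a1 disagreed. No marker read here was at 0.

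Markers of other cells moved with some of the same pools. T cell markers (12 of 15) summed to 295 to 362 in C57BL/6J, and to 404, 363 and 454 in C3H/HeJBir with 282 in sample 2 of Il10-null. Macrophage markers (9 of 10) summed to 1143 to 1471 in C57BL/6J, and to 1524, 1588 and 1750.9 in C3H/HeJBir with 1396 in that same pool. By these sums both lists had the arrangement seen for Igha and Jchain, though with smaller gaps. In it 3 C3H/HeJBir pools lie above every C57BL/6J pool and the fourth does not. By median log2 deviation over all its sets the macrophage list lost it, with 0.24 in sample 2 of C57BL/6J Il10-null against 0.02 to 0.18 in C3H/HeJBir. Over the 6 macrophage sets that passed the minimum the arrangement was present. There the deviation was 0.17 to 0.20 in 3 C3H/HeJBir pools, 0.02 in sample 2 of Il10-null and -0.19 to 0.08 in C57BL/6J. The T cell list kept the arrangement over all its sets by 0.085 against 0.084, but not over the 2 that passed the minimum. Of 6 macrophage sets tested, 3 were higher and 3 lower in the average strain difference. Neutrophil markers (7 of 8) summed to 962 in sample 1 of C3H/HeJBir Il10-null and to 113 to 177 elsewhere. That pool also had the highest epithelial sum (8 of 8), 30920.4 against 22716 to 26318, and the lowest fibroblast sum (6 of 6), 3064 against 4466 to 5993. Pancreatic enzyme genes (6 of 11) summed to 1248 to 4228, highest in the same pool, and the source of this signal was not tested. The part of these cell types in the antibody values was not tested.

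**Figure D3:**
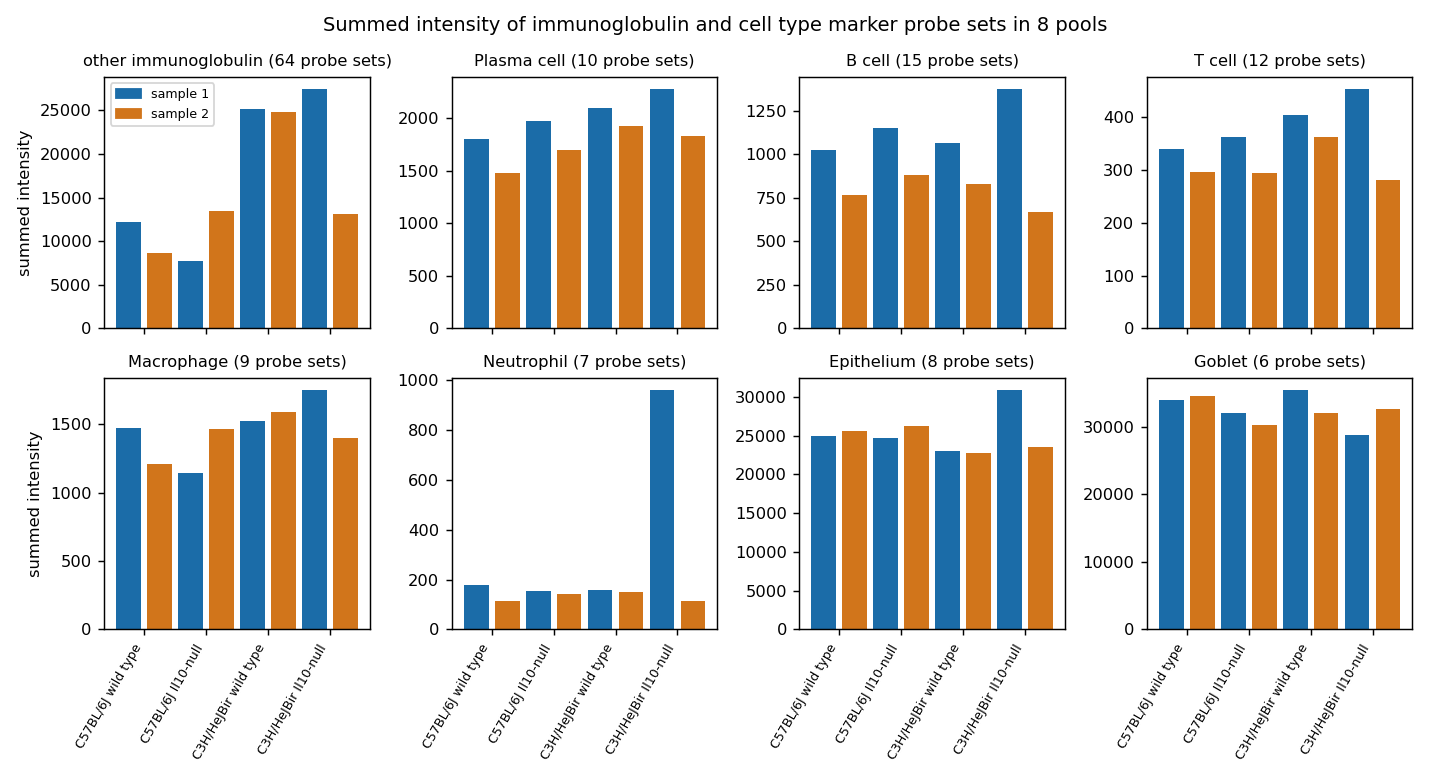
Summed intensity of the other immunoglobulin sets and of 7 cell type marker lists in each pool, with sample 1 in blue and sample 2 in orange. Antibody sums are highest in 3 of the 4 C3H/HeJBir pools, plasma and B cell sums overlap between strains, and neutrophil markers stand out in 1 pool at 962.

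The genes whose log2 values were most like those of each member over the 8 pools are given as a description, since the pools share groups, days and depth of signal. For Igha they were C1qa, a complement gene of macrophages, with Pearson r = 0.98, Igkv6-23 with 0.98, Ifi35, an interferon-induced gene, with 0.98, and Ighm on 2 sets with 0.98 and 0.97. For Jchain they were Lgals9, a galectin, with 1.00, Igkv6-23 with 0.99, Ighm with 0.98, Igkv9-120 with 0.98 and Ctse, a protease, with 0.97. Ighg3 was most like Ighm with 0.97, Lgals9 with 0.97, Jchain with 0.96, Igkv4-91 with 0.96 and Gpn2 with 0.96. For each of these 3 secreted components, 3 of the 5 were antibody or J chain genes.

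Pigr was most like Sec61a1, a subunit of the channel into the endoplasmic reticulum, with 0.96, Cybc1 with 0.94, Kdelr2, a receptor that retrieves proteins to that compartment, with 0.94, Casq1 with 0.93 and Dgka with 0.92. Cd79a was most like St3gal6 with 0.92, Ighm with 0.90, Rreb1 with 0.88, Atp5k with 0.87 and Anapc13 with 0.87. Cd79b was most like Elf1, an Ets family factor of lymphocytes, with 0.97, Trbv1, a T cell receptor segment, with 0.94, Rgs19 with 0.93, Nme2 with 0.93 and Znfx1 with 0.93. Between members, r was 0.95 for Igha and Jchain, 0.58 for Cd79a and Cd79b and 0.47 for Igha and Pigr.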

How the data were processed

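Colon RNA of 8 mouse pools was hybridised to MG_U74Av2 arrays (Affymetrix). The authors deposited 1 linear intensity for each probe set, from 0.03 to 12860, and the deposited experiment files give the hybridisation days. The deposited scaling was kept, since array means with 2% trimmed agreed within a ratio of 1.01. No source used here names the summary method, the background correction or the presence calls.

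Groups were read from the sample titles. Values were analysed as log2(intensity + 11.07), the 20th percentile of all values, and sets with a mean of at least 37.0, the 40th percentile of set means, were tested: 7453 of 12422, standing for 5688 genes. Of all sets, 10833 carried 1 gene symbol, 396 several and 1193 none, and 10817 of the first matched the RefSeq table by gene number. Group means were fitted without a block by lmFit and eBayes of limma 3.58.1 (R 4.3.3), with 4 residual degrees of freedom and 4.23 prior ones. It gave 8 two-sided comparisons with Benjamini-Hochberg adjustment. The sample number comparison came from a fit with that number as a term. The script was tested on simulated data.

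Same-numbered pools deviated from their group means together, with correlations of 0.198 to 0.332 over 6 pairs of groups. The numbers of the labels were used to set pools side by side in pairs, while the main fit ignored them. Hybridisation day and Xist level also moved with sample number, so these correlations cannot show that the pools are true pairs.

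The genes and lists were chosen with earlier results of these data known. Named genes are every member set, the 3 genes with the largest absolute difference of each list (read by the brightest set), tested neighbours of Pigr and Il10, and the 5 sets most correlated with each member. Promoters come from RefSeq (GRCm38.p6). Alternatives covered the pseudocount, minimum, scaling, moderation, groups fitted, blocks, threshold, averaging of sets and each pool left out. All 8 arrays were used, and the counts without each C3H/HeJBir Il10-null pool were added after seeing the data.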

Additional observations from a re-analysis of the deposited data

Results flagged for a closer look

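For 3 named probe sets the Il10-null pools lay on opposite sides of the wild types in the 2 strains, without overlap in either. They are 3 of 67 named sets, and 2.97% of all 12422 probe sets met the same rule. Ighg3 101752_f_at, under the minimum intensity, read 2.82 and 2.69 in C57BL/6J wild type and 3.34 and 27.4 in Il10-null, then 49.1 and 55.3 in C3H/HeJBir wild type and 34.7 and 13.9 in Il10-null. The Il10 differences were 0.77 and -0.90 on the log2 scale, C3H/HeJBir minus C57BL/6J -1.67, and that difference was not tested. Smad4, a mediator of TGF-beta signals, read 258 and 250.2 against 314 and 280.4 in C57BL/6J, wild type before Il10-null, and 323 and 341 against 247 and 290.2 in C3H/HeJBir, a difference of -0.51 (limma adjusted p = 1.00). Smad7 read 146 and 148.05 against 168 and 148.43 in C57BL/6J and 127 and 109.8 against 103 and 103 in C3H/HeJBir, a difference of -0.27 (limma adjusted p = 1.00). The cause was not tested.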

How the results depend on the processing

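Counts of called member sets stayed the same in 140 of 154 recalculations. For strain in wild type the count went from 0 to 1 with the 50th percentile as pseudocount, trend and robust moderation or a threshold of 0.1, to 2 with only the groups compared, and ranged from 0 to 1 with a pool left out. For the average strain difference it went to 1 with the 50th percentile, the minimum at the 60th percentile, quantile normalization, a common median, trend and robust moderation or a threshold of 0.1, and ranged from 0 to 2 with a pool left out. Ighg3 97574_f_at accounts for the count of 1, with 93927_f_at (adjusted p = 0.0309) or, without the sample 2 C3H/HeJBir Il10-null pool, Igha 100583_at for the second. A fit with a pool left out keeps 1 pool in that group, whose spread then drops out of the estimate of error. The replicate block on sample number left the count of called members at 0 in every comparison, and so did the block on hybridisation day. Of 588 single values, 572 kept direction and side of the threshold, 11 became called and 5 reversed. Those were Pigr by strain in wild type (0.049 quantile, 0.044 common median), Cd79b by strain in Il10-null (-0.052, pseudocount at the 5th percentile), and, with the day block in C57BL/6J, Il10 differences of Ighg3 97574_f_at (-0.15) and Cd79b (-0.076). The cause was not tested.

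With a pool left out, 397 of 432 values kept both, 5 became called and 30 reversed. Ranges that crossed 0 were, by strain, Pigr in wild type from -0.095 to 0.078, Ighg3 97008_f_at in Il10-null from -0.26 to 1.55, Cd79a there from -0.26 to 0.61, Cd79b there from -1.02 to 1.09 and on average from -0.13 to 0.92. For Il10 loss in C57BL/6J they were Igha 100583_at from -0.58 to 0.52, 97574_f_at from -0.16 to 0.93, 93927_f_at from -1.63 to 0.81, 97008_f_at from -0.22 to 0.68, Jchain from -0.15 to 0.53, Cd79a from -1.52 to 0.26 and Cd79b from -0.51 to 0.70. In C3H/HeJBir they were Igha 100583_at from -1.46 to 0.43, 93927_f_at from -2.02 to 0.61, 97008_f_at from -1.36 to 0.44, Jchain from -0.84 to 0.10 and Cd79b from -1.68 to 0.43. For the difference between the Il10 effects they were Igha 100583_at from -1.44 to 0.45 and 161486_f_at from -0.35 to 0.046, 93927_f_at from -1.61 to 1.02, 97008_f_at from -1.59 to 0.21 and Cd79b from -1.78 to 0.34. Others kept their sign but moved by over 1.5 times. By strain in wild type these were 97008_f_at from 0.89 to 1.79, Cd79a from 0.37 to 2.16 and Cd79b from 0.15 to 1.36. In Il10-null they were Igha 100583_at from 0.53 to 2.42, 97574_f_at from 0.27 to 3.10, 93927_f_at from 0.29 to 2.92 and Jchain from 0.21 to 1.15. On average they were 93927_f_at from 1.09 to 2.41, 97008_f_at from 0.54 to 1.44 and Cd79a from 0.27 to 1.17. For Il10 loss they were 161486_f_at from -0.51 to -0.20 and Pigr from -0.19 to -0.036 in C57BL/6J, and 161486_f_at from -0.70 to -0.31, 97574_f_at from -3.68 to -0.85 and Pigr from 0.092 to 0.27 in C3H/HeJBir. The difference between the Il10 effects ran from -4.07 to -1.24 for 97574_f_at, -1.04 to -0.095 for Jchain and -1.98 to -0.20 for Cd79a.

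Calls over all probe sets ranged from 2 to 53 by strain in wild type, from 4 to 45 by strain in Il10-null, from 39 to 115 for the average strain difference, from 0 to 106 for sample number, from 0 to 7 and 0 to 1 for Il10 loss in C3H/HeJBir and C57BL/6J and from 0 to 11 for the average Il10 difference. No detection limit was measured. The number of arrays limits the precision.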
